A study of Mus musculus with 21 samples.

Results

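A set of 10 genes that mark red pulp macrophages of the spleen and other tissue-resident macrophages was followed through sorted cells of mice with a juvenile myelomonocytic leukemia-like disease. They were chosen by symbol (Spic, Vcam1, Hmox1, Slc40a1, Cd5l, C1qa, C1qb, C1qc, Axl and Adgre1) and found through their Ensembl identifiers, which gave 10 of the 45706 genes in the count files. All 10 passed the filter on low counts that left 19555 genes. RNA had been sequenced from LSK cells of the BM (lineage-negative, Sca1-positive, cKit-positive stem and progenitor cells) and from CD11b+ cells, which are mostly myeloid, of BM and spleen, giving 21 libraries in 9 groups. In each of these 3 fractions, 3 libraries came from MxCre;Ptpn11D61Y/+ mice at disease stage S3, when the mice were terminally ill. Their Cre recombinase is driven by the interferon-inducible Mx promoter and removes a Neo-Stop cassette, so that the mutant SHP2 phosphatase is made after poly I:C injection. A further 2 libraries per fraction were labelled MxCre (Cre transgene without the mutant allele) and 2 were labelled Ptpn11D61Y/+ (mutant allele behind the cassette, without Cre, so that 1 functional Ptpn11 allele is left). All mice of these groups received poly I:C, which itself induces interferon. The ages of the mice are not given in the sources used here. Among the S3 animals, 540 and 815 are present in all 3 fractions, 640 in BM and spleen CD11b+ cells and 768 in LSK cells alone. Nothing in the labels says that the control libraries of a fraction came from separate animals, so that p-values measure the spread between these libraries.

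Red pulp macrophages clear aged red blood cells from the blood that filters through the spleen. They break down heme with heme oxygenase 1 (Hmox1) and export the iron through ferroportin (Slc40a1), and their development depends on the transcription factor SPI-C (Spic), which heme induces. They also carry the adhesion molecule VCAM-1 (Vcam1), secrete the scavenger-receptor protein CD5L (Cd5l) and C1q, the recognition part of the classical complement pathway (C1qa, C1qb and C1qc), and display the apoptotic-cell receptor AXL (Axl) and the F4/80 antigen (Adgre1). Macrophages of the erythroblastic islands in the BM share much of this programme, and F4/80 is also found on monocytes. CD11b is low on red pulp macrophages, so how many of them a CD11b+ sort retains is not known from the labels.

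Total counts ran from 34992610 to 104509425 per library, with a median of 69421661. The fractions carried the markers of their labels. Kit had between 288 and 533 CPM (the count relative to the TMM-scaled library size) in LSK libraries and between 4.78 and 73.2 CPM in CD11b+ libraries, and Cd34 had between 336 and 500 CPM against 0.954 to 17.3 CPM. Itgam, which encodes CD11b, had between 31.6 and 114 CPM in LSK and between 151 and 1660 CPM in CD11b+ libraries. The library of BM CD11b+ cells labelled MxCre replicate 1 stood apart, most of all in the 10 genes themselves. The 10 macrophage genes took 1.49% of its counts, against 0.0519% in MxCre replicate 2 and between 0.0485% and 0.465% in the other BM CD11b+ libraries. Over 19545 other genes its log2 CPM correlated better with the mean of the spleen CD11b+ libraries (r = 0.905) than with that of the other BM CD11b+ libraries (r = 0.889). The same held for the BM library of S3 animal 640 (0.949 with spleen, 0.934 with BM), while the spleen library of this animal correlated better with BM (0.94) than with spleen (0.922). BM MxCre library 1, spleen MxCre library 1 and the BM library of S3 animal 815 had the fewest genes with a count, at 14885, 14641 and 14761, against 17493 to 22865 in the other CD11b+ libraries. Counts of Xist together with Y-linked genes were found in BM MxCre library 2 (2834 for Xist, 1472 for Eif2s3y) and in the BM and spleen libraries of S3 animal 540 (2780 and 691, 712 and 2084), whose LSK library had 1 Xist count and 3829 for Eif2s3y. The spleen library labelled Ptpn11D61Y/+ replicate 1 held 4753 Xist and 0 Eif2s3y counts, whereas the LSK and BM libraries with that number held 17 and 1 Xist and 6318 and 4542 Eif2s3y counts. Whether these libraries mix animals was not tested. Whether BM MxCre library 1 or those of animal 640 are swapped samples or came from sorts of differing purity was not tested either. Results that rest on BM MxCre library 1 are given with and without it. Since it stood out by the 10 genes themselves, results without it are not independent of that choice.

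Positions of the genes are in GRCm38 (taken from the GENCODE M21 annotation, all protein-coding). Spic (ENSMUSG00000004359) is at chr10:88674772-88685015, Vcam1 (ENSMUSG00000027962) at chr3:116109949-116129688, Hmox1 (ENSMUSG00000005413) at chr8:75093621-75100589, Slc40a1 (ENSMUSG00000025993) at chr1:45908068-45926523 and Cd5l (ENSMUSG00000015854) at chr3:87357881-87371073. Axl (ENSMUSG00000002602) is at chr7:25757273-25788705 and Adgre1 (ENSMUSG00000004730) at chr17:57358691-57483527. The C1q genes are neighbours on the minus strand of chromosome 4, with C1qb (ENSMUSG00000036905) at chr4:136880129-136886187, C1qc (ENSMUSG00000036896) at chr4:136889804-136893065 and C1qa (ENSMUSG00000036887) at chr4:136895917-136898803. Vcam1 is overlapped by Gm43109 on the other strand, and the use of strand in counting is not given in the sources used here, so its counts are uncertain to that extent. Promoter sequences from RefSeq (GRCm38.p6, 250 bases before to 50 after the start) were found for 5 of the 10 genes (Spic, Cd5l, C1qb, C1qc and Axl) and not for Vcam1, Hmox1, Slc40a1, C1qa and Adgre1. Those of 2 pairs whose levels moved together most closely (C1qb with C1qc, and Spic with Axl, described further on) are shown, each 5′ to 3′ on its own minus strand, from chr4:136886151-136886450, chr4:136892865-136893164, chr7:25788684-25788983 and chr10:88682974-88683273. Capitals mark matches, on either strand, to GAGGAA (the core bound by PU.1 and its relative SPI-C) and to TGACNNNGC (the antioxidant response element of NRF2 and BACH1).
C1qb: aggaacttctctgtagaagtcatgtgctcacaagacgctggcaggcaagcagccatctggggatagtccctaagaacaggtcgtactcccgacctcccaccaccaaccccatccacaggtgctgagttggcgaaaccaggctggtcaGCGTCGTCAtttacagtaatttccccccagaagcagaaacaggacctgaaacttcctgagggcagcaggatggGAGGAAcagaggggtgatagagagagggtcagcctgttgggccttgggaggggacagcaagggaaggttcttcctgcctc
C1qc: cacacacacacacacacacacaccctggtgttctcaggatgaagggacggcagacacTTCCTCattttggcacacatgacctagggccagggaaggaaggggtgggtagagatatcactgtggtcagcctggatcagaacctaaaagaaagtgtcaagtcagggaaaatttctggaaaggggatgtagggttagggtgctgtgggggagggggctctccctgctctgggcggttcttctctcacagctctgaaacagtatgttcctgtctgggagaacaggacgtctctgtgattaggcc
Axl: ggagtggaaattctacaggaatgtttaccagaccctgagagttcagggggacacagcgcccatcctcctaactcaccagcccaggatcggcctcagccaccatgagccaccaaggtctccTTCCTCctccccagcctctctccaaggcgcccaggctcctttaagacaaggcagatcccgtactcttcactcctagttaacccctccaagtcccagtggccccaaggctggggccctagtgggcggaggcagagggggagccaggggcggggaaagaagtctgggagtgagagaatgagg
Spic: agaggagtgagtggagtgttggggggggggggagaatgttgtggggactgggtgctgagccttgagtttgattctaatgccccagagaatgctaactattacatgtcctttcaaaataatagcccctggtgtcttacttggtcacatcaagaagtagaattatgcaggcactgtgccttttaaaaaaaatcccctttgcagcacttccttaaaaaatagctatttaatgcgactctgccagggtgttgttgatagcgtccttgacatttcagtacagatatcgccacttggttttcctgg
GAGGAA was found in the C1qb, C1qc and Axl promoters at positions -30, -193 and -130 relative to the start, and in that of Cd5l at -66. It is found in 28.3% of 32851 RefSeq mouse promoters of this length. TGACNNNGC was found in that of C1qb at -103 and is found in 12.4% of all promoters. Neither was found in the Spic window, which starts from the RefSeq start site and lies inside the gene as GENCODE M21 draws it, and the E-box CACGTG, found in 7.15% of all promoters, was in none of the 5. Both motifs are in the C1qb promoter, where they do not overlap.

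The 10 genes had their lowest medians in LSK cells and, apart from BM MxCre library 1, tended to be highest in the spleen. In the 7 spleen libraries each gene was above its level in each of the 7 LSK libraries. For 4 genes (Spic, Slc40a1, Cd5l and Adgre1) each spleen library was also above the 6 other BM libraries, with BM MxCre library 1 left aside. How many of all genes were separated in these ways was not counted. BM MxCre library 1 exceeded the other BM libraries for 10 of 10 genes and exceeded every spleen library for 8 of 10, the exceptions being C1qb (1900 CPM, within the spleen range) and Adgre1 (183 CPM, just below the lowest spleen library). Its ratio to MxCre library 2 ran from 8 for Slc40a1 to 50 for Cd5l.

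**Figure D1:**
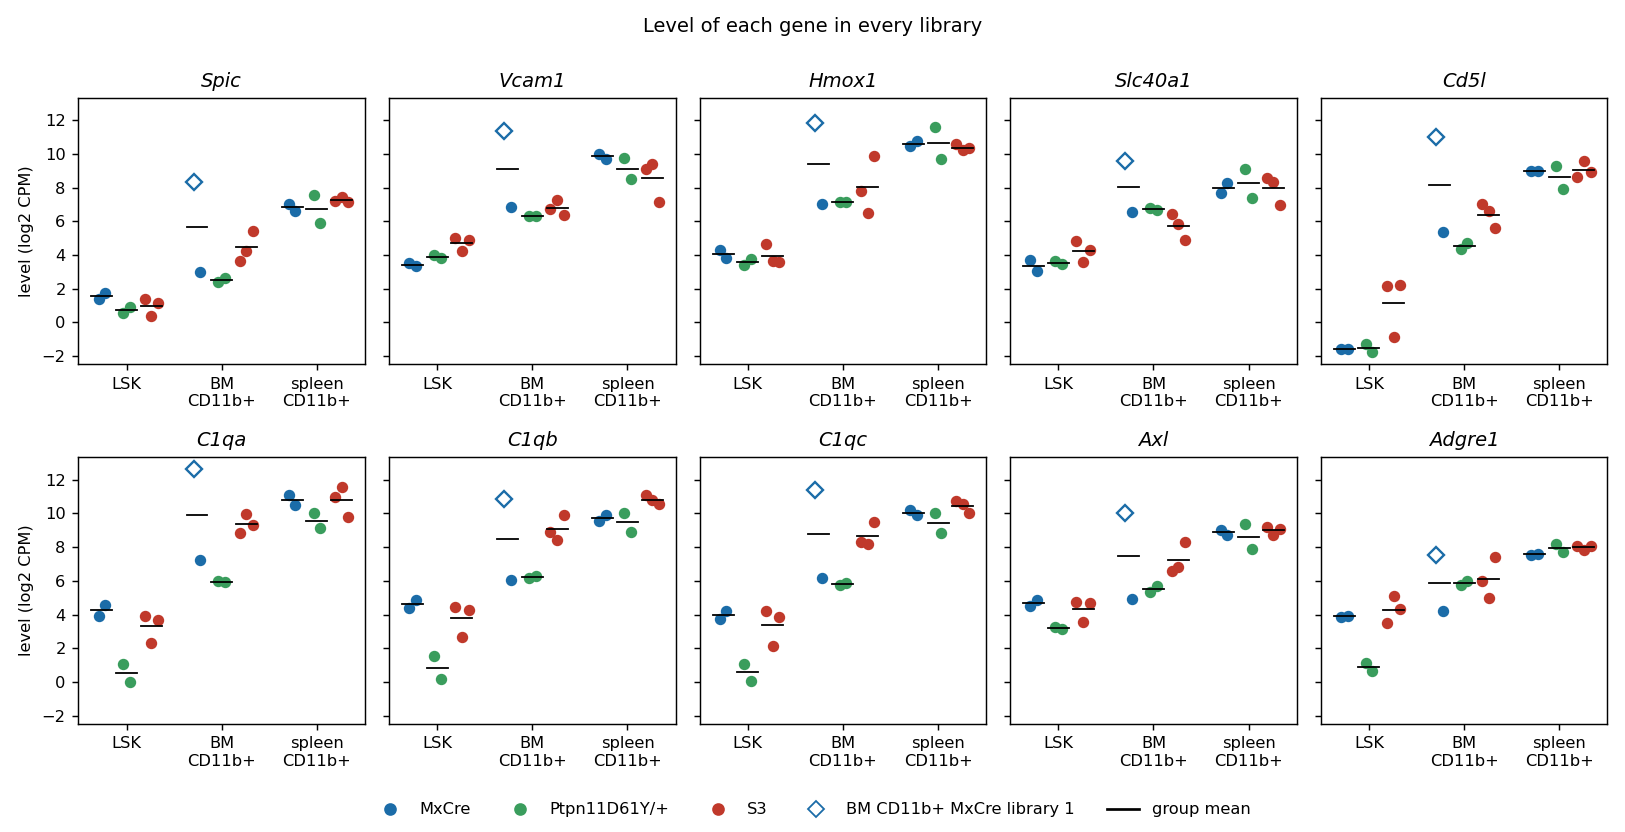
Level of each of the 10 genes in the 21 libraries, as log2 CPM with a prior count of 2, by fraction on the x axis and by genotype in colour, with group means as lines. BM CD11b+ MxCre library 1 (open diamond) lies within or above the spleen libraries for 9 of 10 genes and just below them for Adgre1, far from MxCre library 2 in each panel.

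Spic ran from 1.26 to 3.34 CPM in LSK cells, with a median of 2.16 CPM. In BM CD11b+ cells it had 5.23 and 6.25 CPM in the Ptpn11D61Y/+ libraries, 12.6, 43.4 and 18.9 CPM in S3 animals 540, 640 and 815, and 322 and 7.87 CPM in MxCre libraries 1 and 2. In spleen CD11b+ cells it had 129 and 99.2 CPM in MxCre, 191 and 59.6 CPM in Ptpn11D61Y/+ and 147, 144 and 176 CPM in S3. The spleen groups overlapped in part, with the 3 S3 libraries between the outer Ptpn11D61Y/+ values.

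Hmox1 and Slc40a1 act one after the other on the iron of heme. Hmox1 ran from 10.7 to 24.9 CPM in LSK cells and from 836 to 3070 CPM in the spleen, and in BM CD11b+ cells had 141 and 144 CPM in Ptpn11D61Y/+, 225, 933 and 88.4 CPM in S3 animals 540, 640 and 815, and 3590 and 130 CPM in MxCre. Slc40a1 ran from 8.13 to 28.5 CPM in LSK cells and from 126 to 547 CPM in the spleen, and in the BM had 110 and 103 CPM in Ptpn11D61Y/+, 86.4, 30 and 57.9 CPM in S3 and 756 and 94.5 CPM in MxCre. The BM library of S3 animal 640 thus held the highest Hmox1 and the lowest Slc40a1 among BM libraries other than MxCre library 1. In spleen the same animal held the lowest Slc40a1 (126 CPM) and the lowest Vcam1 (144 CPM, against 371 to 1040 CPM in the other 6).

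Cd5l had the widest range as a ratio of highest to lowest level (0.268 to 2020 CPM), while C1qa spanned the most CPM (0.971 to 6280). LSK libraries held 0.311 and 0.314 CPM in MxCre, 0.378 and 0.268 CPM in Ptpn11D61Y/+ and 4.5, 4.57 and 0.521 CPM in S3 animals 540, 768 and 815, which are 38, 33, 59, 32, 611, 612 and 50 counts. BM CD11b+ cells held 20.2 and 26.4 CPM in Ptpn11D61Y/+, 129, 48 and 97.9 CPM in S3 animals 540, 640 and 815, and 2020 and 40.4 CPM in MxCre. Spleen libraries ran from 244 to 756 CPM, with a median of 504 CPM.

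The 3 C1q genes had their lowest values in the Ptpn11D61Y/+ LSK libraries, where C1qb had 2.88 and 1.09 CPM, against 20.5 and 29.4 CPM in MxCre and 21.6, 19.1 and 6.45 CPM in S3 animals 540, 768 and 815. In BM CD11b+ cells C1qb had 70.7 and 77.1 CPM in Ptpn11D61Y/+, 479, 948 and 343 CPM in S3 and 1900 and 66.1 CPM in MxCre, so that the 3 S3 libraries were above the other BM libraries except MxCre library 1. In the spleen it had 741 and 951 CPM in MxCre, 1060 and 480 CPM in Ptpn11D61Y/+ and 2190, 1530 and 1770 CPM in S3 animals 540, 640 and 815, where the S3 libraries did not overlap the others. C1qa and C1qc reached 3100 and 1690 CPM in the spleen of S3 animals 815 and 540.

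Of the surface proteins, Axl ran from 9 to 28.7 CPM in LSK cells, from 30.5 to 321 CPM in BM CD11b+ cells other than MxCre library 1 (1060 CPM) and from 234 to 664 CPM in the spleen. Adgre1 ran from 1.53 to 34.4 CPM in LSK cells, from 18.2 to 183 CPM in BM and from 184 to 290 CPM in spleen CD11b+ cells, the narrowest range of the 10 genes in the spleen. Per kilobase of exon the order of the genes in S3 spleen cells was C1qa (1940 ± 1060 RPKM, SD, n = 3), C1qb (1680 ± 308), Hmox1 (762 ± 96.3), C1qc (728 ± 175), Cd5l (267 ± 93.7), Axl (103 ± 17.3), Adgre1 (79.4 ± 6.57), Vcam1 (50.8 ± 30.8), Spic (40.5 ± 4.67) and Slc40a1 (30.7 ± 14.9). The neighbours C1qa and C1qb, Hmox1 and C1qc, Adgre1 and Vcam1, Vcam1 and Spic, and Spic and Slc40a1 lay within the larger SD of the pair. In LSK cells of MxCre mice C1qb was also near the top (22.9 ± 5.77 RPKM, SD, n = 2) and Cd5l at the bottom (0.153 ± 0.000868 RPKM).

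In BM CD11b+ against LSK cells, as the mean over genotypes, 10 of 10 genes were higher with an adjusted p below 0.05 in edgeR (quasi-likelihood test, Benjamini-Hochberg adjustment), where 26.8% of the 19555 genes were higher. With libraries scaled by total count alone 10 of 10 were again called, while the genes called were 2706 higher and 9856 lower, against 5243 and 6175 with TMM scaling. The median log2 fold change of the 10 genes was 4.42, and that of all genes tested was -0.17. Cd5l differed most (log2 fold change 7.56, standard error 0.806, 188-fold, adjusted p = 2.09e-06), followed by C1qa (6.24) and C1qc (5.59), and Axl least (3.25, standard error 0.56, adjusted p = 0.000174). Leaving out BM MxCre library 1 kept the call for 10 of 10 genes, beside 24.1% of 20805 genes, but lowered their median to 3.16 and the log2 fold change of each, to between 1.85 (Axl) and 5.98 (Cd5l), with Spic at 2.26, Hmox1 at 3.70, C1qa at 4.74, C1qb at 3.93 and C1qc at 4.14. Markers of other cells were higher in BM CD11b+ cells at the same time, namely 13 of 13 erythroid, 11 of 13 neutrophil, 9 of 10 monocyte, 8 of 8 B cell and 7 of 8 T cell markers, and their part in these differences was not tested. Adgre1 (3.26) was the gene whose libraries overlapped: the LSK library of S3 animal 815 (34.4 CPM) was above the BM libraries of the same animal (32 CPM) and of MxCre replicate 2 (18.2 CPM). The LSK library of S3 animal 768 (20 CPM) was also above that BM library of MxCre replicate 2.

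In spleen CD11b+ against LSK cells, 10 of 10 genes were again higher, beside 28.3% of genes, with a median log2 fold change of 6.33 against -0.14 for all genes. Cd5l was 714-fold higher (9.48, standard error 0.876, adjusted p = 4.81e-07), C1qa 210-fold (7.71, standard error 0.749, adjusted p = 7.76e-07), Hmox1 107-fold (6.74) and Spic 61.1-fold (5.93, standard error 0.651, adjusted p = 2.51e-06). Slc40a1 differed least, at 21.8-fold (4.45, standard error 0.491). Both comparisons share the LSK libraries. In bulk samples, fewer cells of a type and less RNA per cell cannot be told apart, so these values do not say how many macrophages were in a fraction.

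Lists of related genes, chosen with earlier results of these data known, gave the context. Of 20 further macrophage markers, 18 were higher in spleen CD11b+ than in LSK cells and none lower (median log2 fold change 4.59), where 28.3% of genes were higher and 31.6% lower. The same numbers, 18 and 0, were found in BM CD11b+ cells (median 4.25, 31.6% of genes lower), or 16 higher and 1 lower (median 2.98) without BM MxCre library 1. In the spleen they were led by Fcna, which encodes the lectin ficolin A (9.31, standard error 1, adjusted p = 2.02e-06), Itgad, the integrin CD11d of red pulp macrophages (6.89), and Msr1, the scavenger receptor SR-A (6.30). The hemoglobin scavenger receptor Cd163 and Clec4f, which marks Kupffer cells of the liver, did not pass, and Clec4f had at most 13 counts in a CD11b+ library. Of 20 genes of heme and iron handling, 12 were higher and 3 lower in the spleen (median 1.01), with Slc11a1, the phagosomal metal transporter (5.71, adjusted p = 8.44e-07), and the ferritin chain Fth1 (4.14) highest and the endosomal ferrireductase Steap3 lowest (-2.66, adjusted p = 0.000194). Of 16 regulators of macrophages, 13 were higher and 1 lower (median 2.18), among them Cebpb (6.58) and the oxysterol receptor Nr1h3 (6.08, adjusted p = 2.29e-06). Of 15 genes of TAM receptors and the uptake of apoptotic cells, 9 were higher and 4 lower, and Mertk, the relative of Axl, was higher by 4.40 (adjusted p = 0.000153), while the bridging protein Mfge8 was lower by -1.84. Of 16 other complement genes, 10 were higher and 2 lower, with the C5a receptor C5ar1 first (6.66, adjusted p = 4.73e-08). Of 13 VCAM-1 ligands and inducers, 10 were higher and 0 lower, led by Tnf (3.80) and the integrin chain Itgb2 (2.98). With total-count scaling, where 3193 genes were higher and 9375 lower against 5537 and 6183 with TMM scaling, the further macrophage markers again had 18 higher and 0 lower. The heme and iron genes then had 8 higher and 5 lower, the regulators 9 and 1, the apoptotic-cell uptake genes 5 and 4, the complement genes 5 and 2 and the VCAM-1 ligands and inducers 8 and 1. In BM the 20 macrophage markers then had 16 higher and 1 lower.

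Between spleen and BM CD11b+ cells the macrophage genes were compared within each genotype. In Ptpn11D61Y/+ mice the spleen libraries were above the BM libraries for 10 of 10 genes, with a median log2 fold change of 3.55 against 0.03 for all genes. Spic alone passed the threshold (4.45, standard error 1.09, 21.8-fold, adjusted p = 0.0365), where 1.23% of genes were higher, and the other 9 had adjusted p-values from 0.0641 (Cd5l) to 0.23 (Slc40a1). The call of Spic was lost when any 1 of the 4 libraries was left out (adjusted p from 0.0692 to 0.276, fold changes from 3.34 to 5.05).

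In S3 mice, 10 of 10 genes were higher in the spleen (median 1.68 against 0.09 for all genes) and 0 passed the threshold, beside 0.0563% of genes, with 5 members and 1910 genes at an unadjusted p under 0.05. Spic differed most (2.64, standard error 0.817, adjusted p = 0.246), then Cd5l (2.57) and Slc40a1 (2.25, standard error 0.658, adjusted p = 0.219). The spleen and BM libraries did not overlap for 8 of the 10 genes and overlapped for Vcam1 and C1qa. The share of all genes without overlap was not counted, so the 8 have no baseline. DESeq2 called 2 of the 10 genes, Spic (2.54) and Slc40a1 (2.17), beside 1.86% of 29799 genes. Without the BM library of animal 640 the median was 2.23, with Hmox1 at 3.09 and Adgre1 at 2.42 against 1.68 and 1.54 with it, and without its spleen library the median was 1.86. In both cases 0 of 10 passed, beside 463 of 19402 and 226 of 19421 genes called.

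In MxCre mice the result turned on BM library 1. With both BM libraries, 9 of 10 genes had a lower mean in the spleen (median -0.45) and 0 passed, beside 0.915% of genes (3875 genes at an unadjusted p under 0.05, and 0 members by DESeq2, which called 7.28% of genes). Without it, 10 of 10 were higher in the spleen (median 3.65) and 7 passed, beside 2.05% of 20805 genes that were higher: Axl (3.95, standard error 0.853, adjusted p = 0.0193), C1qc (3.91), Spic (3.86, adjusted p = 0.0183), C1qb (3.68), C1qa (3.64), Adgre1 (3.38) and Vcam1 (3.03). Hmox1 (3.60, adjusted p = 0.0816), Cd5l (3.65, adjusted p = 0.0569) and Slc40a1 (1.45, adjusted p = 0.314) did not pass. The lone BM library left is then assumed to vary like the other groups. BM library 1 stood out by its high levels of these same genes. The direction without it thus follows from that choice, and neither it nor the calls are separate support. BM library 2, the one left, held both Xist (2834) and Y-linked counts (1472 for Eif2s3y). With replicate numbers as a block and both BM libraries, 7 of 10 genes were above 0 (median 0.24) and 0 passed, beside 1 of 19555 genes.

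**Figure D2:**
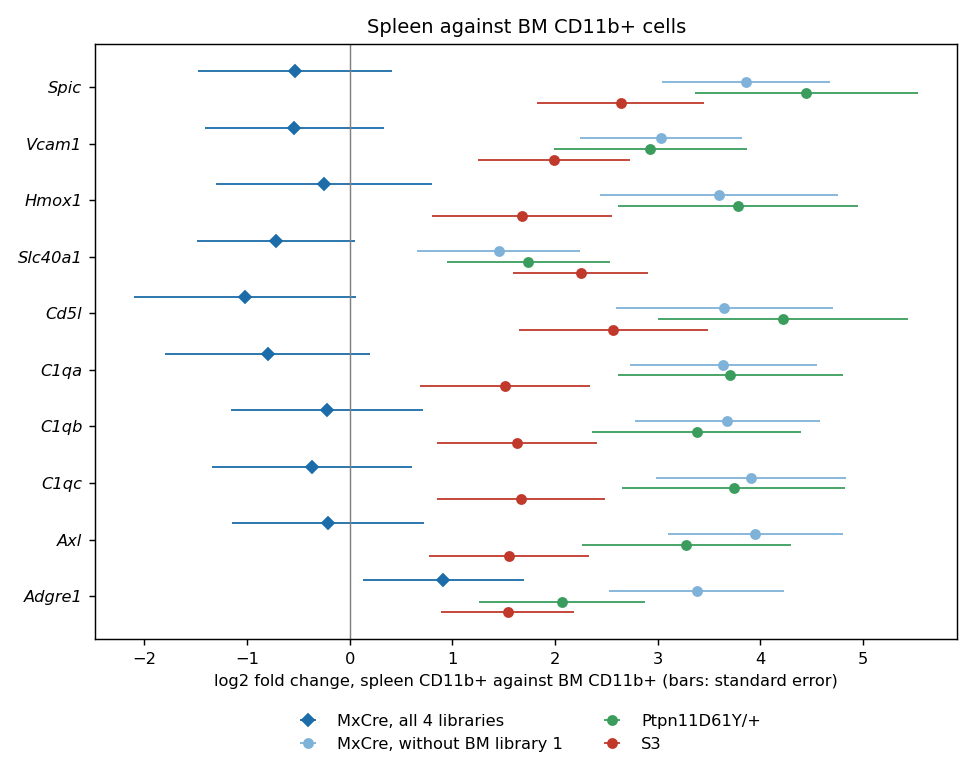
Log2 fold change of each gene in spleen against BM CD11b+ cells on the x axis, with standard errors as bars, by genotype. The MxCre points lie near 0 with both BM libraries (median -0.45) and close to the Ptpn11D61Y/+ points for most genes without BM library 1 (median 3.65).

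Genes of other cells differed between spleen and BM at the same time. The 13 neutrophil markers summed to between 31000 and 146000 CPM in BM libraries (S100a9 or Ngp the most abundant, 0 markers at 0), and to 70200 and 133000 CPM in MxCre, 93400, 40600 and 43500 CPM in S3 animals 540, 640 and 815, but 4630 and 8660 CPM in Ptpn11D61Y/+ spleen libraries. In the Ptpn11D61Y/+ comparison 10 of these 13 genes were lower in the spleen (median -4.32), beside 2.46% of all genes, as were 6 of 13 erythroid markers (median -5.89). Higher there were 2 of 10 dendritic cell markers (median 2.66) and 2 of 9 stem and progenitor markers (median 1.86), with 0 lower, beside 1.23% of all genes. Of 10 monocyte markers 1 was higher and 1 lower. The 13 erythroid markers summed to between 14900 and 225000 CPM in BM and to between 1180 and 30500 CPM in spleen libraries, with a globin gene most abundant and 3 of the markers at 0 in spleen MxCre library 1. The part of these markers of other cells in the macrophage gene differences was not tested. Among the further macrophage genes in this comparison, Marco, a scavenger receptor of marginal zone macrophages, was higher in the spleen (8.56, standard error 1.71, adjusted p = 0.0231), at 38.8 and 328 CPM against 0.44 and 0.53 CPM. It was 1 of 20 macrophage markers called, with a median of 2.26. Nr1h3 (5.24, standard error 1.14, adjusted p = 0.0254) and its partner Rxra (2.97, standard error 0.657, adjusted p = 0.0264) were 2 of 16 regulators higher. The transferrin receptor Tfrc (-4.26, adjusted p = 0.0375), which erythroblasts also carry, and the iron importer Slc11a2 (-1.84, adjusted p = 0.0395) were 2 of 20 heme and iron genes lower, and Cd36 (-2.34, adjusted p = 0.0172) was 1 of 15 apoptotic-cell uptake genes lower. Without spleen Ptpn11D61Y/+ library 1, whose sex-linked counts differed from those of the libraries with the same number, 0 of 20819 genes were called in this comparison, so that the calls of Marco, the other genes named and the 10 neutrophil markers were lost. Without BM library 1, BM library 2 or spleen library 2 the number of genes called was 4 (0 of them higher), 40 (1 higher) and 69 (36 higher), against 722 with all 4. With total-count scaling 285 genes were higher and 206 lower, against 241 and 481, and the calls of Tfrc (adjusted p = 0.0566), Slc11a2 (adjusted p = 0.129) and Cd36 (adjusted p = 0.0505) were lost. In S3 mice 0 of the 20 macrophage markers passed (median 1.33).

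S3 was compared with MxCre in each fraction to ask which genes accompany the leukemia. In LSK cells 0 of 10 genes passed, beside 0.0307% of genes (777 at an unadjusted p under 0.05), and their median log2 fold change was -0.16 against 0.01 for all genes. Cd5l had the largest difference (3.35, standard error 1.16, 10.2-fold, adjusted p = 0.882), with the 3 S3 libraries above both MxCre libraries, although that of animal 815 (0.521 CPM) lay much nearer to the MxCre values than those of animals 540 and 768. Vcam1 followed (1.31, standard error 0.834, adjusted p = 1), at 32.1, 29.1 and 18.8 CPM in S3 animals 540, 768 and 815, 11.5 and 10 CPM in MxCre and 15.9 and 13.9 CPM in Ptpn11D61Y/+. The 3 S3 libraries were above all 4 control libraries for both genes. Against the mean of both control genotypes the median of the 10 genes was 1.04, with 9 of 10 above 0 (4 of 10 against MxCre alone) and 0 passing, beside 8 of 19555 genes. The difference from that mean was 3.33 (standard error 0.875, adjusted p = 0.281) for Cd5l and 1.08 for Vcam1. Spic was lower in the 3 S3 libraries (2.53, 2.16 and 1.26 CPM in animals 540, 768 and 815) than in both MxCre libraries (2.64 and 3.34 CPM), at -0.59 (standard error 0.859, adjusted p = 1). The C1q genes had values from -0.83 to -0.36 and overlapped. Adgre1 was highest in S3 animal 815 (34.4 CPM), whose library also held the most pan-myeloid marker counts of the LSK libraries (981 CPM, Lyz2 the most abundant, 0 at 0), and the part of these in its level was not tested. Of 20 further macrophage markers 0 passed (median 0.29).

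In BM CD11b+ cells the direction of the S3 comparison depended on the MxCre library. With both, 10 of 10 genes were lower in S3 (median -2.18 against 0.18 for all genes) and 0 passed, beside 0% of genes (6 members and 3022 genes at an unadjusted p under 0.05). The differences ran from -3.58 for Vcam1 (standard error 0.824, adjusted p = 0.148) to -0.18 for Adgre1. Without MxCre library 1, 8 of 10 were higher in S3 (median 1.98 against 0.17) and 0 passed, again beside 0% of genes: C1qb (3.17, standard error 0.853, adjusted p = 0.645), C1qc (2.65), Axl (2.55), Adgre1 (2.29), C1qa (2.26), Hmox1 (1.69), Spic (1.68) and Cd5l (1.18) were above 0, Vcam1 was at 0.00 (standard error 0.632) and Slc40a1 at -0.70. Without MxCre library 2, 10 of 10 were below 0 and 8 passed the test (C1qb and Adgre1 did not), beside 4.24% of 20923 genes that were lower, with Vcam1 at -4.50 (adjusted p = 0.000697). With the Ptpn11D61Y/+ libraries added to both MxCre libraries the median was -0.07, with 5 of 10 genes above 0 and 0 passing, beside 15 of 19555 genes. With the 2 Ptpn11D61Y/+ libraries added to the controls and MxCre library 1 left out, an alternative chosen after seeing the data, the C1q genes were 3.08 (C1qb, standard error 0.575, adjusted p = 0.0695), 2.88 (C1qa, adjusted p = 0.0789) and 2.81 (C1qc, adjusted p = 0.0796), Axl was 2.24 (adjusted p = 0.109) and Spic 1.90 (adjusted p = 0.189). For Slc40a1 the value was -0.79 (adjusted p = 0.663). In that comparison 0 of the 10 genes passed, beside 2 of 20805 genes. The 3 S3 libraries were above the 3 control libraries for Spic, Cd5l, Axl and the C1q genes and below them for Slc40a1. The control library left out was the highest in BM for each of these genes, and the share of all genes so separated was not counted. Of 20 further macrophage markers 0 passed with either set of libraries, and their median went from -1.04 with both MxCre libraries to 1.98 without library 1, as that of the 15 apoptotic-cell uptake genes went from 0.21 to 2.04. The median of the 12 stromal and endothelial markers went from -0.38 to 2.82 in the same way, with 0 called, and their part in these values was not tested.

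**Figure D3:**
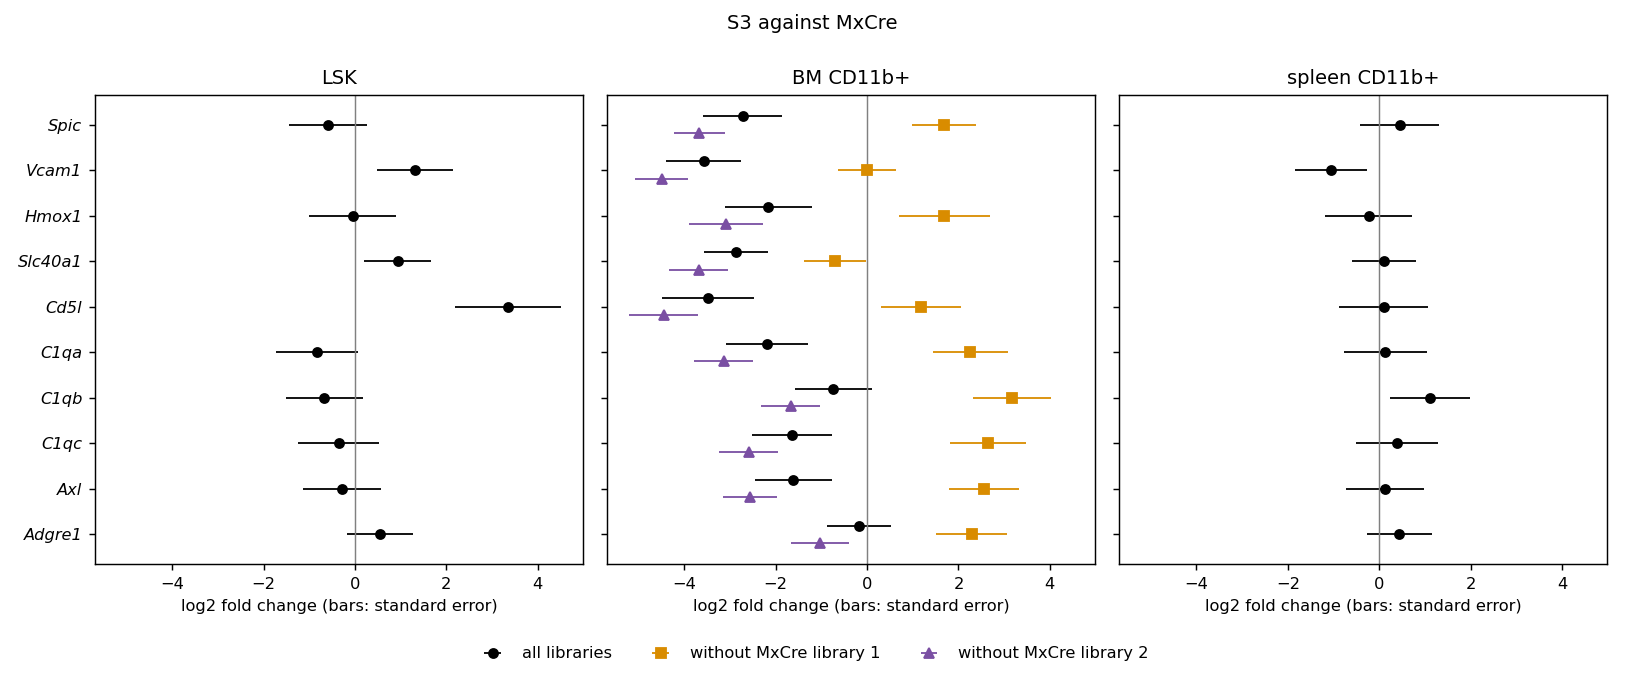
Log2 fold change of each gene in S3 against MxCre libraries on the x axis, with standard errors as bars, in the 3 fractions, and in BM CD11b+ cells also without MxCre library 1 (squares) or 2 (triangles). There the points lie left of 0 with both MxCre libraries (median -2.18) and for 8 of 10 genes right of 0 without library 1, while in spleen they lie between -1.05 and 1.11.

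In spleen CD11b+ cells 0 of 10 genes passed the test between S3 and MxCre, beside 4.19% of genes (819 genes), with 0 members at an unadjusted p under 0.05 and 0 called by DESeq2, where 11.5% of 29799 genes were called. With any 1 of the S3 libraries left out 0 passed, and the median lay between 0.12 and 0.42. Beside this, the genes called were 267 of 19488 (86 higher) without animal 540 and 860 of 19549 (447 higher) without 815. Without animal 640 they were 483 of 19421 (174 higher). The median was 0.13 against 0.32 for all genes. The values ran from -1.05 for Vcam1 (standard error 0.786, adjusted p = 0.406) to 1.11 for C1qb (standard error 0.883, adjusted p = 0.434), and the standard errors of 0.704 to 0.978 mean that changes of several fold could go undetected. Vcam1 was lower in the 3 S3 libraries (539, 144 and 669 CPM in animals 540, 640 and 815) than in both MxCre libraries (1040 and 829 CPM), and Spic, C1qb and Adgre1 were higher in the 3 S3 libraries than in both. Of 20 further macrophage markers 0 passed (median 0.49). Of 16 regulators 0 were higher and 3 lower in S3, beside 1.51% and 2.67% of genes: Nfe2l2, which encodes NRF2, the activator of Hmox1 (-2.12, standard error 0.416, adjusted p = 0.0123), Cebpb (-4.15, standard error 1.03, adjusted p = 0.0342) and Id3 (-3.39, standard error 0.596, adjusted p = 0.00876). Nfe2l2 had between 95.8 and 167 CPM in S3 and 396 and 793 CPM in MxCre, whereas Hmox1 had 1520, 1300 and 1190 CPM in S3 and 1410 and 1730 CPM in MxCre (log2 fold change -0.23). Of the VCAM-1 ligands and inducers, Irf1 (-2.64, adjusted p = 0.00928) and Rela (-1.17, adjusted p = 0.0237) were 2 of 13 lower. C5ar1 (-2.79, adjusted p = 0.0185) was 1 of 16 complement genes lower, and 1 was higher, Cfb (adjusted p = 0.0451), which encodes factor B, had 0 counts in both MxCre libraries and 0.301 to 1.77 CPM in S3, and is named after its values were seen. Erythroid markers differed as well, with 4 of 13 higher in S3 and 0 lower (median 4.81), among them Hbb-bs, a beta-globin (3.73, standard error 0.884, adjusted p = 0.0278), and Alas2, the first enzyme of heme synthesis in erythroid cells (6.15, adjusted p = 0.0219). These 13 summed to 14700, 30500 and 16000 CPM in S3 animals 540, 640 and 815 and to 3480 and 1180 CPM in MxCre (a globin gene most abundant, 3 at 0 in MxCre library 1). Their part in the other differences was not tested. The calls of all these list genes were lost in a fit of only the groups compared and with both control genotypes together, which called 0 genes each in edgeR. With total-count scaling the genes called were 661 higher and 256 lower, against 296 and 523 with TMM scaling, and the calls of Nfe2l2 (-1.62, adjusted p = 0.0512) and Rela (-0.74, adjusted p = 0.114) were lost.

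The S3 difference was compared between fractions. Between LSK and spleen cells the S3 libraries lay on opposite sides of both MxCre libraries for Vcam1 (above in LSK, below in spleen) and for Spic (below in LSK, above in spleen), but the difference between fractions did not pass for either (-2.36, adjusted p = 0.384, and 1.03, adjusted p = 0.725). Of the 10 genes, 0 passed for spleen minus BM (median 2.18, 0% of genes, 2100 at an unadjusted p under 0.05), for spleen minus LSK (median 0.15, 0.00511% of genes, 14 genes with total-count scaling) and for BM minus LSK (median -1.74, 0% of genes, 1587 at an unadjusted p under 0.05). Without BM MxCre library 2, 4 genes passed for spleen minus BM, beside 0.679% of genes (Spic at 4.13, Vcam1 at 3.46, Slc40a1 at 3.80 and Cd5l at 4.56), and 3 passed for BM minus LSK, beside 0.636% of genes (Vcam1 at -5.82, Slc40a1 at -4.63 and Cd5l at -7.81). Without library 1 the medians were -1.87 and 2, against 2.18 and -1.74 with it, and a lone BM MxCre library was left.

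The libraries labelled Ptpn11D61Y/+ share the MxCre libraries with S3 as their comparison. In LSK cells the C1q genes and Adgre1 were 8.16- to 12.8-fold lower than in MxCre, a difference that did not pass the test: C1qa was -3.68 (standard error 1.11, adjusted p = 0.762), C1qb -3.65 (standard error 1.04, adjusted p = 0.605), C1qc -3.36 (standard error 1.07, adjusted p = 1) and Adgre1 -3.03 (standard error 0.843, adjusted p = 0.547), and in each the Ptpn11D61Y/+ libraries were below both MxCre libraries. Without Ptpn11D61Y/+ library 1 the values of C1qa, C1qb and C1qc were -4.33, -4.52 and -3.98. None of the 10 genes passed, beside 0.0614% of genes (330 at an unadjusted p under 0.05, 4 members), while DESeq2 called C1qb and Adgre1, beside 0.346% of 29799 genes. A fit of only the groups compared called 5 of the 10, 1 of them higher, beside 2508 of 17688 genes (1121 higher). S3 against the same MxCre libraries gave -0.83, -0.67, -0.36 and 0.55 for these 4 genes. Myeloid markers moved with them: the 7 pan-myeloid markers summed to 253 and 258 CPM in Ptpn11D61Y/+ and 783 and 695 CPM in MxCre (Lyz2 the most abundant, 0 at 0), Itgam had 32.4 and 31.6 CPM against 114 and 102 CPM, and 4 of 13 neutrophil markers were lower, Ltf by -7.41 (adjusted p = 0.00634). Without either of the Ptpn11D61Y/+ LSK libraries 0 genes were called, so that these calls were lost. The 13 erythroid markers summed to 230 and 178 CPM against 1690 and 940 CPM (Tfrc and Hbb-bs the most abundant, 0 at 0). Their part in the difference was not tested. In BM CD11b+ cells 10 of 10 genes were lower than in MxCre (median -3.91), 0 passed, beside 0% of genes (4419 at an unadjusted p under 0.05, 9 members), and DESeq2 called 8, beside 6.28% of 29799 genes. Without MxCre library 1 the median was -0.09, with 5 genes higher and 5 lower, 0 passed and 0% of genes. Without library 2, 10 of 10 were below 0 and 9 passed (Adgre1 did not), beside 5.03% of genes that were lower. In spleen CD11b+ cells 0 passed, beside 5.11% of genes, with a median of -0.10 and values from -1.20 (C1qa, adjusted p = 0.472) to 0.47 (Slc40a1). Beside this, the neutrophil markers had 7 of 13 lower (median -3.60), and Nfe2l2 (-2.41, adjusted p = 0.0147) and Cebpb (-4.53, adjusted p = 0.0447) were again lower than in MxCre. Of 8 B cell markers 2 were higher (median 3.46), and T cell markers had a median of 2.75 with 0 called. Of 16 complement genes 2 were higher and 1 lower, and of 13 VCAM-1 ligands and inducers 3 were lower. Without spleen Ptpn11D61Y/+ library 1, 0 of 20819 genes were called, so that these calls were lost, and the median of the 10 macrophage genes was -0.96. Without spleen Ptpn11D61Y/+ library 2 instead, that median was 0.42, with 7 of the 10 genes above 0. With total-count scaling the genes called in this comparison were 1429 higher and 278 lower, against 410 and 590.

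The 10 genes rose and fell together over the libraries, as a description over libraries that differ in fraction and depth. Over all 21 libraries the 45 pairs had Pearson correlations of log2 CPM from 0.81 (Slc40a1 with Adgre1) to 1 after rounding (C1qb with C1qc), with a median of 0.93, which holds the difference between fractions. Over the 14 CD11b+ libraries they ran from 0.51 (Slc40a1 with C1qb) to 0.98, with a median of 0.86, and without BM MxCre library 1 from 0.44 to 0.98, with a median of 0.84. Spic and Axl correlated at 0.98 over the 14 libraries, as did C1qb and C1qc. Slc40a1 was the member least like the rest, at 0.51 to 0.62 with the C1q genes, Axl and Adgre1, but at 0.88 with Vcam1. Vcam1 was at 0.61 with Adgre1.

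**Figure D4:**
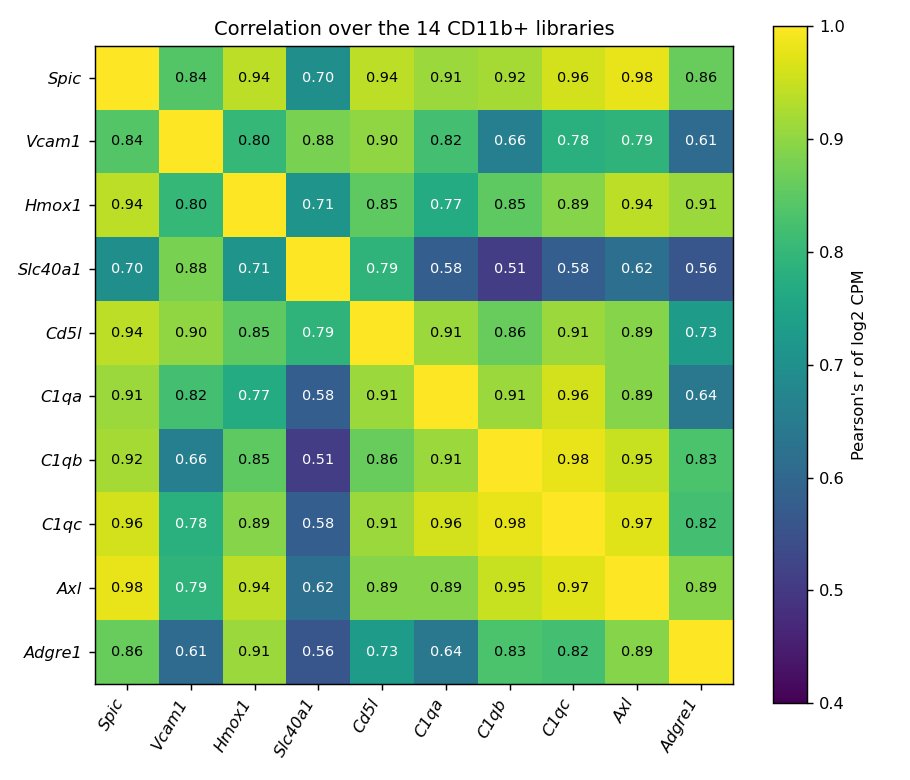
Pearson correlation of log2 CPM between the 10 genes over the 14 CD11b+ libraries, as colour and number in each cell. Slc40a1 has the lowest values, down to 0.51 with C1qb, and Spic with Axl and C1qb with C1qc the highest, at 0.98.

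Of 11045 other genes whose mean log2 CPM was 1 or more, those most like Spic over the 21 libraries were Stard5 (r = 0.976), Nr1h3 (0.975) and Pdlim4 (0.974), and those most like Axl were Nr1h3 and Stard5 (0.971 each) and Lgmn (0.968). Vcam1 was most like Marcks (0.983), Fcna (0.978) and Ccr3 (0.975), and Slc40a1 most like Ccr3 (0.975), Il18bp (0.973) and Fcna (0.972). Among the genes like Hmox1 were Ctsb (0.977) and Stard5 (0.973). Cd5l was most like Fcna and Lamp1 (0.969 each) and Cndp2 (0.966). C1qa was most like Ms4a7 and Clec4b1 (0.98 each), C1qb like Clec4b1 (0.966), and C1qc like Pdlim4 (0.975) and Lgmn (0.969). Adgre1 was most like Dse (0.975) and Slc11a1 (0.973). Nr1h3 itself had between 5.11 and 6.01 CPM in Ptpn11D61Y/+, 38.8 to 109 CPM in S3 and 7.69 and 296 CPM in MxCre BM CD11b+ libraries, and between 97 and 430 CPM in the spleen.

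The 3 C1q genes encode the chains of 1 protein, yet the ratio of their counts differed between libraries. C1qa had 3.3 times the counts of C1qb in BM MxCre library 1, 2.98 times in spleen MxCre library 1 and 2.94 times in the BM library of S3 animal 815, the 3 CD11b+ libraries with the fewest genes detected. The ratio was 2.24 in BM MxCre library 2, 1.55 in spleen MxCre library 2 and 1.75 in the spleen of S3 animal 815, between 0.784 and 1.16 in the 4 Ptpn11D61Y/+ CD11b+ libraries, 0.975 and 0.937 in S3 animal 540, and 0.673 and 0.584 in BM and spleen of S3 animal 640. In LSK cells it lay between 0.656 and 0.892. Over the 14 CD11b+ libraries the log2 ratio correlated with the number of genes detected (r = -0.98, Spearman's rho = -0.96), and over the 13 without BM MxCre library 1 at -0.97 for both. The ratio moved with the number of genes detected within MxCre and within S3 as well as between them. Its part in the C1qa differences was not tested. C1qc to C1qb moved less, from 0.664 to 1.61 over the CD11b+ libraries.

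**Figure D5:**
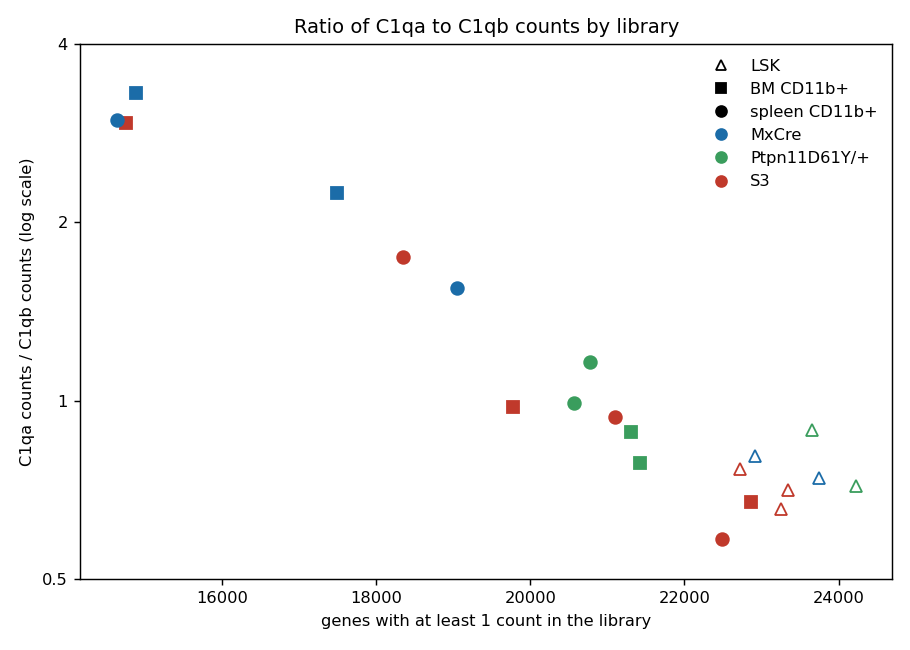
Ratio of C1qa to C1qb counts (log scale) against the number of genes with at least 1 count, 1 point per library, by fraction (shape) and genotype (colour). The ratio falls from 3.3 in BM CD11b+ MxCre library 1 to 0.584 in the spleen library of S3 animal 640, and LSK libraries lie between 0.656 and 0.892.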

How the data were processed

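RNA was extracted with a column kit, made into poly(A)-selected libraries and read as paired ends. Per the labels and the study's methods, reads were demultiplexed with bcl2fastq 2.20.0.422, checked with FastQC 0.11.9, trimmed with Trim Galore 0.6.5 and aligned with STAR 2.5.3a to mm10. The methods name 3 mice per genotype, whereas the labels hold 2 MxCre libraries per fraction, and the labels were followed. The authors deposited raw counts per gene for each library, without normalization. The counting program, its annotation and its use of strand are not given in the sources used here.

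From these counts, 19555 of 45706 genes (99.99% of counts) passed filterByExpr (minimum count 10, minimum total 15) in edgeR 4.0.16 (R 4.3.3). Library sizes were TMM-scaled, and 1 robust quasi-likelihood model was fitted to 21 libraries in 9 groups (12 residual degrees of freedom). All 14 comparisons are contrasts of it, with Benjamini-Hochberg adjustment over all genes and a threshold of 0.05. Fold changes are on the log2 scale. Standard errors from edgeR are the size of the log2 fold change divided by the square root of its quasi-likelihood F statistic. CPM used TMM-scaled sizes, log2 CPM a prior count of 2, and RPKM the exonic length of GENCODE M21, since raw levels of different genes are not comparable. Symbols were found for 45143 Ensembl identifiers and not for 563. The fit was also tried on simulated data, and no result given here rests on that. DESeq2 1.42.0 was run as an alternative, as were RLE and total-count scaling, no filter, only the groups compared, both control genotypes together, a replicate block, a prior count of 0.5 and leaving out each library in turn.

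The S3 numbers name animals, so BM and spleen CD11b+ libraries of S3 are paired, and deviations from the group means correlated at 0.108, 0.407 and 0.333 within animals 540, 815 and 640. With the block 0 of the 10 genes passed in this comparison, beside 1 of 19555 genes, and without it 0 passed beside 11 genes. Control numbers were not used as pairs, since the labels do not tie them to animals. Same-numbered control libraries correlated between -0.173 and 0.059 across fractions, a range that LSK and BM libraries of S3 animal 815 (-0.096) also fell in, so that this does not settle whether a number marks 1 animal. The sex-linked counts go against it for Ptpn11D61Y/+ number 1 and differ between same-numbered libraries for MxCre number 2 (Xist at 9, 2834 and 4 counts in LSK, BM and spleen) and for S3 animal 540 (1, 2780 and 712).

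The members and the 17 lists of related genes and cell type markers (197 genes) were chosen with earlier results of these data known. Members are named throughout. Whether the libraries of compared groups overlapped was read for the members alone. The share of all genes without overlap was not counted for any comparison. For each list, up to 3 called genes per direction with the largest fold change and a mean log2 CPM of 1 or more could be named, plus list genes for a known role. For likeness the 3 genes with the highest r were taken, and not all of them are reported here. Motif matches were counted on both strands.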

Additional observations from a re-analysis of the deposited data

Results flagged for a closer look

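Differences between Ptpn11D61Y/+ and MxCre libraries pointed in opposite ways in 2 fractions for 2 genes. For each gene, the libraries of the 2 groups did not overlap in either fraction. The 2 genes were picked out for this among the macrophage genes. How many of all genes meet the same rule was not counted, so the 2 have no baseline. With 2 libraries per group, such separation can also arise by chance. For Vcam1 the log2 fold change was 0.47 in LSK cells, where both Ptpn11D61Y/+ libraries were above both MxCre libraries, and -4.08 in BM CD11b+ cells, where both were below, so that the fractions were 4.55 apart. The BM value rests on MxCre library 1 (2590 CPM, against 114 CPM in library 2 and 79.7 and 80.8 CPM in Ptpn11D61Y/+), and without that library it is -0.49. For Adgre1 the log2 fold change was -3.03 in LSK cells and 0.40 in spleen CD11b+ cells (207 and 290 CPM against 184 and 194 CPM), which gave a difference of -3.43 between fractions. Within fractions, Vcam1 did not pass in edgeR in LSK cells (standard error 0.876) or BM CD11b+ cells (standard error 0.989, adjusted p = 0.164). Adgre1 did not pass in edgeR in LSK cells (standard error 0.843, adjusted p = 0.547) or spleen CD11b+ cells (standard error 0.779, adjusted p = 0.793). Neither difference between fractions was tested.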

How the results depend on the processing

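The 10 genes passed in BM and in spleen CD11b+ against LSK cells under each alternative run, DESeq2 and every left-out library included. Elsewhere the number of the 10 genes called depended on the tool and the libraries. DESeq2 called 4 for S3 against MxCre in BM (976 genes in all, against 0 in edgeR), 2 and 8 for Ptpn11D61Y/+ against MxCre in LSK and BM (103 and 1871 genes), 8 and 2 for spleen against BM in Ptpn11D61Y/+ and S3 (2556 and 554 genes), and 3 for the S3 difference of BM minus LSK (150 genes), of 29799 genes each. A fit of only the groups compared called 1 for S3 and 5 for Ptpn11D61Y/+ against MxCre in LSK cells, beside 4700 of 17561 and 2508 of 17688 genes, and 9 for spleen against BM in Ptpn11D61Y/+, beside 4265 of 16234 genes. The cause was not tested. The single call there (Spic) was lost without the filter (0 called, adjusted p = 0.0724 in edgeR) and with the replicate block (0 called, adjusted p = 0.0794). Among the 10 genes the block, whose numbers name animals in S3 alone, changed no other count of calls. For spleen against BM in MxCre it turned their median from -0.45 to 0.24, with 7 of 10 above 0. No paired analysis was possible because no replicate number is shared, where S3 and MxCre were compared.

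Leaving out 1 library at a time gave 0 to 8 called for S3 and 0 to 9 for Ptpn11D61Y/+ against MxCre in BM, 0 to 7 for spleen against BM in MxCre, 0 to 0 in Ptpn11D61Y/+, and 0 to 4 and 0 to 3 for the S3 difference of spleen minus BM and BM minus LSK. For S3 against MxCre in BM the fold changes ran from -3.67 to 1.68 (Spic), -3.57 to 1.69 (Hmox1), -4.45 to 1.18 (Cd5l) and -3.14 to 2.26 (C1qa). For Ptpn11D61Y/+ they ran from -4.64 to 0.15 (Hmox1), -2.80 to 0.19 (Slc40a1), -4.67 to 0.18 (C1qb) and -4.49 to 0.62 (Axl), and for spleen minus BM from -1.22 to 4.13 (Spic), -1.04 to 3.46 (Vcam1) and -1.07 to 4.56 (Cd5l). Each of these reversals came without BM MxCre library 1. Adgre1 for S3 in BM went from -0.18 to 0.21 without the BM library of S3 animal 815. With both control genotypes 5 of 10 genes in BM were above 0 for S3 (median -0.07), C1qa at 0.66. In alternatives chosen after seeing the data, both controls without BM MxCre library 1 gave 1.90 (Spic), 0.24 (Vcam1), 1.62 (Hmox1), 1.57 (Cd5l) and 2.88 (C1qa). Leaving out the 3 CD11b+ libraries with the fewest genes detected gave 6 called for spleen against BM in MxCre, beside 1367 of 20540 genes (908 higher), with 1 library on each side, assumed to vary like the other groups. It gave 1.84 (Spic), 2.17 (Hmox1), 1.14 (Cd5l) and 1.91 (C1qa) for S3 in BM, 0.15 (Hmox1), 0.19 (Slc40a1), 0.18 (C1qb) and 0.62 (Axl) for Ptpn11D61Y/+ in BM, and -1.19 (Spic), -0.62 (Vcam1) and -1.02 (Cd5l) for spleen minus BM.

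With total-count scaling the all-gene median went from -0.17 to -0.99 in BM and from -0.14 to -0.90 in spleen against LSK cells, and from 0.20 to 0.84 in spleen for Ptpn11D61Y/+ against MxCre, where the median of the 10 genes went from -0.10 to 0.56. A prior count of 0.5 kept 89 of 90 group means within 1 SD, the largest shift being 0.09. Precision is limited by groups of 2 or 3 libraries, and for low values such as Cd5l in control LSK libraries (32 to 59 counts) also by counting error. Depth was not varied.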

Other observations

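Markers of other cells were counted beside the macrophage genes. In spleen CD11b+ against LSK cells 8 of 10 monocyte, 6 of 10 dendritic, 7 of 8 B cell, 6 of 8 T cell, 3 of 7 NK cell and 7 of 7 pan-myeloid markers were higher in edgeR, beside 28.3% of all genes, and 8 of 9 stem and progenitor, 3 of 7 megakaryocyte and 5 of 12 stromal and endothelial markers were lower, beside 31.6%. Of 13 neutrophil markers 10 were higher and 3 lower, and of 13 erythroid markers 5 were higher. In the opposite direction, 1 monocyte, 1 dendritic and 1 NK cell marker were lower and 1 stromal and endothelial marker was higher. In S3 against MxCre, with the neutrophil and erythroid lists left aside, 0 markers of these lists passed in any fraction with all libraries. Of the other marker lists, 1 of 13 neutrophil markers was lower in LSK cells (Mmp8, log2 fold change -5.33, adjusted p = 0.024 in edgeR) and 1 in spleen CD11b+ cells (Csf3r, -3.49, adjusted p = 0.0137, a call lost in a fit of only the groups compared and with both control genotypes), and 1 of 13 erythroid markers was lower in LSK cells (Hbb-bs, -5.13, adjusted p = 0.0356). Without the LSK library of S3 animal 540 or 768, 0 genes were called in LSK cells. The 4 erythroid markers higher in spleen became 9 without BM MxCre library 1, which is in neither group compared. The stromal and endothelial markers summed to 426 CPM in BM MxCre library 1, with Cxcl12, a chemokine of BM stromal cells, the most abundant at 310 CPM. In the other CD11b+ libraries they summed to between 50.4 and 260 CPM, with the endothelial gene Pecam1 the most abundant. The dendritic cell markers summed to between 2050 and 15100 CPM in spleen and between 824 and 2500 CPM in BM CD11b+ libraries, and the lowest spleen value was that of S3 animal 640.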
